A study of Drosophila melanogaster with 16 samples.

Results

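The pentose phosphate pathway takes glucose-6-phosphate out of glycolysis. Its oxidative branch makes NADPH, the reducing power for fatty acid synthesis and for glutathione and thioredoxin, and ends in ribulose-5-phosphate. Its non-oxidative branch interconverts sugar phosphates, yielding ribose-5-phosphate for nucleotides or returning carbon to glycolysis as fructose-6-phosphate and glyceraldehyde-3-phosphate. In insects, fat body and gut are sites of lipid synthesis that draws on this NADPH.

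The genes described here are the enzymes of that pathway in Drosophila melanogaster, chosen by name from a list of 8. Of these, 7 were found in the table of 9982 genes and all 7 passed the filter on low values (at least 3 libraries of some group above a normalized CPM of 1), as did 9950 genes in all. The oxidative branch was represented by 3 genes, Zw (glucose-6-phosphate dehydrogenase, the entry step), CG17333 (6-phosphogluconolactonase, named Pgls in the current annotation) and Pgd (6-phosphogluconate dehydrogenase). The non-oxidative branch was represented by 4 genes, CG30410 (ribose-5-phosphate isomerase, listed as Rpi in the table), CG30499 (ribulose-phosphate 3-epimerase, named Rpe in the annotation), CG8036 (a transketolase) and Taldo (transaldolase). CG5103, the other listed transketolase gene, was not analysed here.

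RNA-seq was done on whole larvae, with 20 larvae in each of 16 libraries and 4 libraries in each of 4 groups. Control larvae (Tub-GAL4 with the TRiP control line) and grn RNAi larvae (Tub-GAL4 with a grain dsRNA line) carried the same driver, whose tubulin promoter acts in all tissues. Both were fed for 8 h on a low sugar diet (LSD, 10% yeast) or on a high sugar diet (HSD, 10% yeast with 15% sucrose). Each RNAi arm is 1 dsRNA line, the stage is the second instar in the study's methods and the third instar in the labels, and the sample titles set the groups. The genotype entries of the labels disagree with them, naming wild type for all 8 LSD libraries and an erk7 mutant for all 8 HSD libraries. Those entries split by diet, so if they were true, diet and genotype could not be told apart in any comparison of HSD with LSD.

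The libraries held 24038848 to 32644817 reads in the genes of the table. Among markers of larval tissues, 10 of 10 midgut, 10 of 10 muscle and 9 of 9 neuron genes were measured, and 3 of 8 fat body genes. The targeted gene grn, which encodes the GATA factor Grain, was higher and not lower in the libraries labelled grn RNAi. It stood at a normalized CPM of 239 ± 14.7 (SD, n = 4) on LSD against 18.1 ± 2.63 (SD, n = 4) in control larvae, and of 219 ± 10.2 (SD, n = 4) on HSD against 20.5 ± 2.66 (SD, n = 4). A count of reads over the whole gene does not separate dsRNA made by the transgene from the gene's own transcript. The direction of every RNAi comparison below is therefore that of the library labels. In whole larvae, fewer cells of a type and less RNA per cell cannot be told apart.

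In Release 6 of the fly genome the 3 oxidative genes lie on the X chromosome, all on the plus strand. Zw (FBgn0004057) lies at X:19667252-19672353, CG17333 (FBgn0030239) at X:10847438-10848534 and Pgd (FBgn0004654) at X:2145136-2148566. Of the non-oxidative genes, CG8036 (FBgn0037607) lies at 3R:8667868-8673702, and the other 3 lie on 2R, CG30410 (FBgn0050410) at 2R:23355183-23356441, CG30499 (FBgn0050499) at 2R:7564434-7565751 on the minus strand, and Taldo (FBgn0023477) at 2R:23940410-23942114. Reads were counted by strand over exons. CG30410 shares 139 exonic bases with the noncoding gene CR30409 on the same strand, where reads cannot be assigned to 1 of the pair, so its level is less certain. Zw shares 369 exonic bases with a gene on the opposite strand, asRNA:CR44512.

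High sugar feeding raised the whole measured pathway in control larvae. All 7 genes were higher on HSD at an adjusted p under 0.05 (limma on log2 values, adjusted over 9950 genes), where 19.3% of all genes tested were called higher and 22.3% lower. In each of the 7 the HSD libraries lay above every LSD library, as 13.4% of all genes did in that direction. The size of the rise differed widely. Zw, Pgd, CG8036 and Taldo rose 2.47-fold to 3.97-fold, whereas CG17333, CG30410 and CG30499 rose 1.18-fold to 1.42-fold. The oxidative branch had a median log2 fold change of 1.67 and the non-oxidative branch of 0.80, beside 0.02 over all genes, and each branch held both strongly and weakly changed genes.

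Zw showed the largest rise of the pathway. The control libraries on LSD held 54.9, 58.5, 51.6 and 60.5 normalized CPM, a mean of 56.4 ± 3.94 (SD, n = 4). On HSD they held 229, 227, 231 and 213, a mean of 225 ± 8.13 (SD, n = 4). The lowest HSD library was thus 3.52 times the highest LSD library, and the groups did not overlap. The log2 fold change was 1.99 (SE 0.05, adjusted p = 4.5e-12 from limma), the position 9 from the top among 9950 genes ordered by this change.

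Pgd, which carries out the second NADPH-producing step, rose less than Zw. Its control libraries held 265, 235, 236 and 231 normalized CPM on LSD and 758, 731, 829 and 759 on HSD. The means were 242 ± 15.6 and 769 ± 41.7 (SD, n = 4 each) and the groups stood far apart. The log2 fold change was 1.67 (SE 0.06, adjusted p = 6.0e-11 from limma), and the 95% interval of its fold change, 2.92 to 3.46, did not meet that of Zw, 3.66 to 4.30.

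CG17333, which opens the lactone made by Zw, is the weakly changed gene of the oxidative branch. Its libraries held 50.5, 49.4, 43.5 and 41.6 normalized CPM on LSD and 69.8, 66.7, 62.0 and 63.6 on HSD. All HSD values were above all LSD values, but the lowest HSD library exceeded the highest LSD library by a factor of only 1.23. The log2 fold change was 0.50 (SE 0.06, adjusted p = 2.5e-05 from limma), the position 446 from the top.

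In the non-oxidative branch, CG8036, which moves 2-carbon units between sugar phosphates, rose as Pgd did. The transketolase gene held 785, 832, 780.4 and 812 normalized CPM on LSD and 2681, 2574, 2642 and 2508 on HSD in control larvae. Spread within each group was small, with coefficients of variation of 3.02% and 2.94%. The log2 fold change was 1.70 (SE 0.04, adjusted p = 1.6e-12 from limma), at position 21 from the top next to Pgd at 23.

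Taldo, which moves 3-carbon units, held 497, 483, 399 and 418 normalized CPM on LSD and 1104, 1088, 1158 and 1073 on HSD. Its LSD libraries formed a higher and a lower pair, and all 4 were below every HSD library. Its change on the log2 scale was 1.30 (SE 0.06, limma adjusted p = 1.4e-09), at position 46 from the top.

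The isomerase and epimerase genes, whose enzymes interconvert the pentose phosphates, changed little. Their positions from the top were 1523 for CG30410 and 1972 for CG30499. CG30410 held 88.7, 89.0, 74.5 and 80.3 normalized CPM on LSD and 106, 98.0, 102 and 101 on HSD (log2 fold change 0.29, SE 0.06, adjusted p = 0.0012 from limma). CG30499 held 60.9, 62.3, 49.2 and 52.1 on LSD and 64.9, 64.9, 69.3 and 65.9 on HSD (log2 fold change 0.24, SE 0.07, adjusted p = 0.011 from limma). In both genes the groups were separate by a narrow margin, and LSD replicates 3 and 4 were the lower ones. The CG30499 call was lost when the 8 libraries of the comparison were fitted alone (adjusted p = 0.057 from limma). With 4 against 4 libraries the two-sided exact permutation test gave p = 0.029 for each of the 7 genes, the smallest p this design allows.

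**Figure D1:**
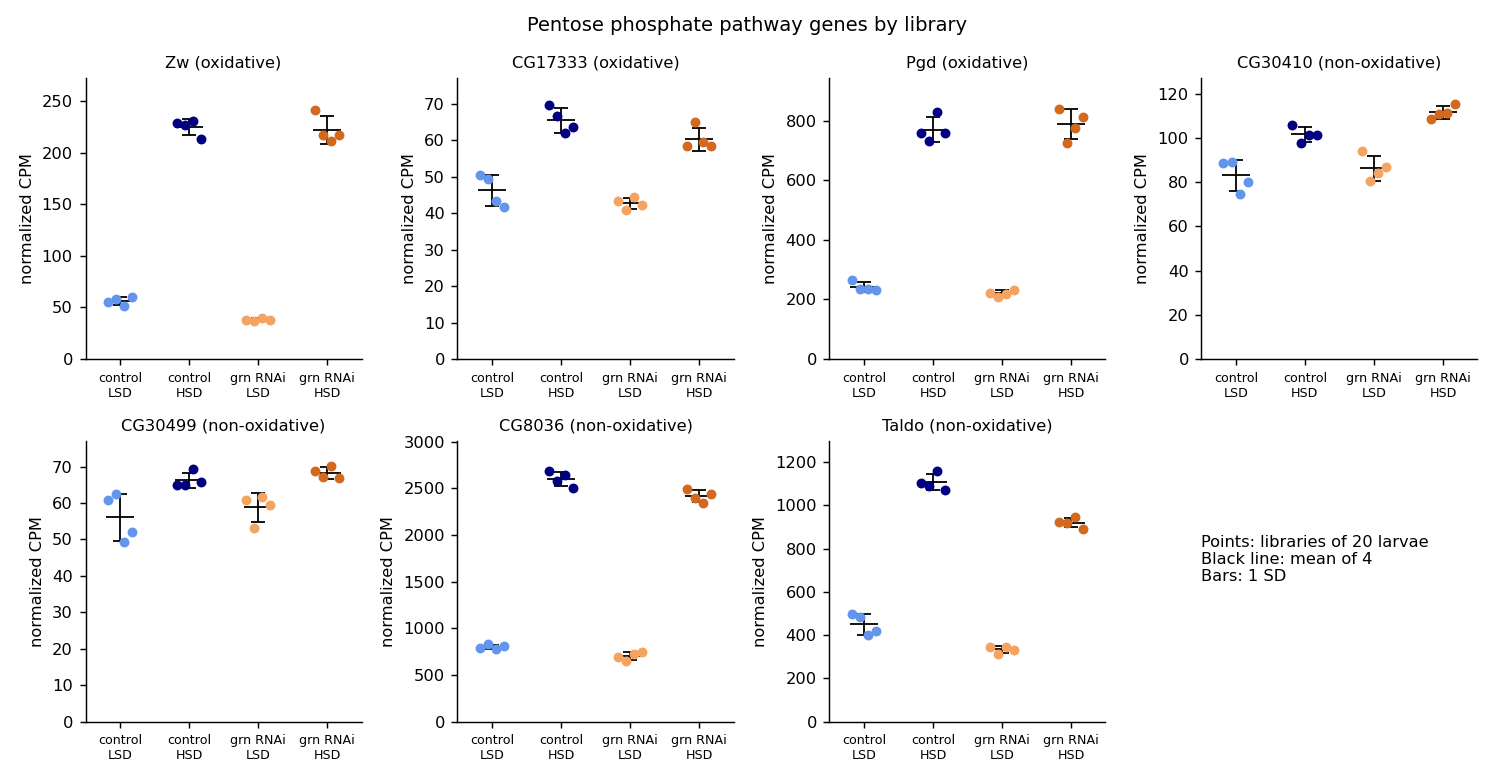
Normalized CPM (y axis, from 0) of the 7 measured genes in each library, by group (x axis); points are libraries, the black line is the mean of 4 and bars are 1 SD. In every gene the HSD points lie above the LSD points of the same genotype, and the separation is wide for Zw, Pgd, CG8036 and Taldo.

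The diet response had the same direction in the libraries labelled grn RNAi. All 7 genes were again higher on HSD (adjusted p under 0.05 from limma), where 18.3% of all genes were called higher and 23.3% lower, and none of the 7 overlapped between diets, as for 21.2% of all genes in that direction. The log2 fold changes were 1.84 for Pgd, 1.78 for CG8036, 1.46 for Taldo, 0.49 for CG17333, 0.37 for CG30410 and 0.22 for CG30499, each with an SE of 0.04 to 0.07. The call of CG30499 (adjusted p = 0.022 from limma) was lost without grn LSD replicate 2 (adjusted p = 0.074) or grn HSD replicate 3 (adjusted p = 0.053). Zw rose from 37.9, 36.8, 40.0 and 37.9 normalized CPM on LSD to 242, 217, 212 and 217 on HSD, a 5.75-fold rise (log2 fold change 2.52, SE 0.05, adjusted p = 2.3e-13 from limma).

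**Figure D2:**
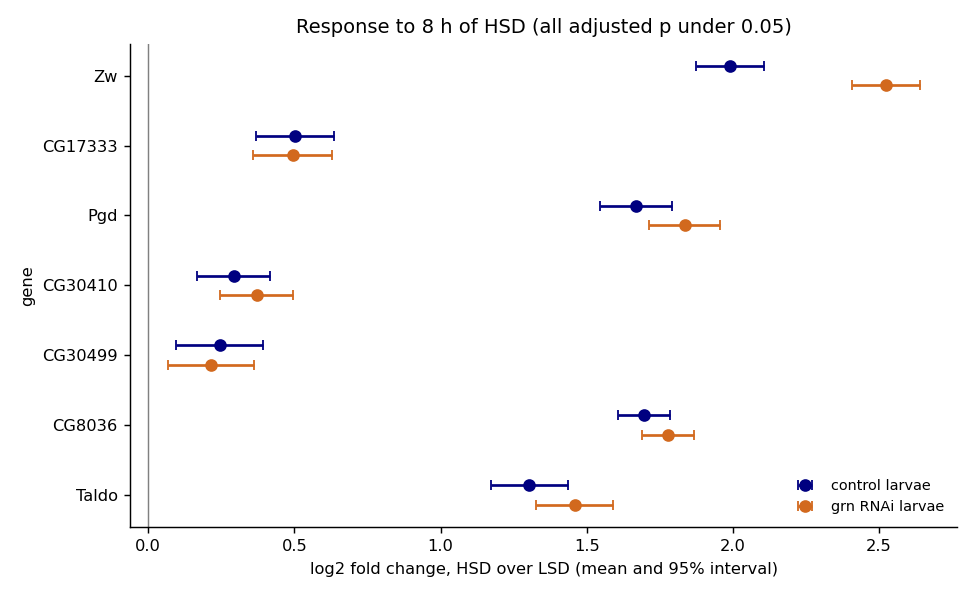
Log2 fold change of HSD over LSD (x axis) with its 95% interval for each gene (y axis) in control and grn RNAi larvae, n = 4 libraries per group. All intervals lie above 0, and Zw has the largest change in both genotypes, 1.99 and 2.52.

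Only for Zw did the diet response pass the test of a difference between the genotypes. The difference was 0.53 on the log2 scale (SE 0.08, adjusted p = 0.0013 from limma), and 3.72% of all genes were called with a larger and 1.63% with a smaller diet response in grn RNAi larvae. For the other 6 genes the difference lay between -0.03 and 0.17 and did not pass. The 95% intervals reached 0.34 for Pgd and for Taldo and 0.21 for CG8036, so differences of that size are not excluded by these data. The Zw difference was 0.48 to 0.65 over the alternative settings and 0.49 to 0.58 with each library left out, and passed in each.

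The difference in Zw came with its level on LSD. In the libraries labelled grn RNAi, Zw was 38.1 ± 1.37 normalized CPM (SD, n = 4) on LSD, below all control libraries, which started at 51.6. The log2 fold change against control was -0.56 (SE 0.05, adjusted p = 1.2e-06 from limma, exact two-sided permutation p = 0.029). Among 9950 genes ordered by this change Zw was at position 8695 from the top. On HSD, Zw was 222 ± 13.4 in grn RNAi larvae against 225 ± 8.13 in control larvae (SD, n = 4 each), and the groups overlapped (log2 fold change -0.02, 95% interval -0.14 to 0.09, adjusted p = 0.79 from limma).

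On LSD, 3 of the 7 genes (Zw, Taldo and CG8036) were lower in grn RNAi larvae than in control larvae, where 27.1% of all genes were called lower and 27.1% higher. The 3 were also those without overlap between genotypes on LSD, as for 24.4% of all genes in that direction. None of the 7 was called higher, and 23.1% of all genes were higher without overlap. Taldo held 346, 315, 344 and 331 normalized CPM against 399 to 497 in control larvae, below each of them (log2 fold change -0.42, SE 0.06, limma adjusted p = 5.6e-05). Its position was 8348 from the top of 9950 genes. CG8036 held 695, 653, 727 and 744, under the lowest control value of 780.4 (log2 fold change -0.19, SE 0.04, limma adjusted p = 0.0017). That change was small, at position 7196 from the top. Its sign turned on 2 other scalings, at 0.02 on CPM of the recovered reads, where the median of all genes rose too, and at 0.10 after quantile normalization.

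The remaining 4 genes did not pass on LSD. Pgd held 223, 208, 219 and 232 normalized CPM in grn RNAi larvae, against 231 to 265 in control larvae, so that the groups met at their edges (log2 fold change -0.13, adjusted p = 0.066 from limma). It passed with DESeq2 (adjusted p = 0.042). CG17333 was at 42.7 ± 1.51 against 46.2 ± 4.35, CG30410 at 86.3 ± 5.76 against 83.1 ± 7.01 and CG30499 at 58.8 ± 3.86 against 56.1 ± 6.45 normalized CPM (SD, n = 4 each). These 3 overlapped widely between the genotypes. CG17333 passed only when control LSD replicate 4 was left out among the settings run (log2 fold change -0.16, adjusted p = 0.041 from limma).

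On HSD, 1 of the 7 genes, Taldo, was lower in the libraries labelled grn RNAi, where 21.2% of all genes were called lower and 17.9% higher. It held 923, 917, 944 and 892 normalized CPM, below the 1073 to 1158 of control larvae. The groups did not overlap, and the log2 fold change was -0.27 (SE 0.06, adjusted p = 0.0033 from limma), at position 8035 from the top of 9950 genes. Taldo was thus lower on both diets, and its diet response was not shown to differ between genotypes (difference 0.16 on the log2 scale, adjusted p = 0.34 from limma).

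A pair of genes stood apart on HSD without passing the test. CG8036 held 2491, 2394, 2342 and 2439 normalized CPM, each below the lowest control library at 2508 (log2 fold change -0.11, limma adjusted p = 0.057), and 19.9% of all genes were lower without overlap. CG30410 held 109, 111, 111 and 116, each above the highest control library at 106 (log2 fold change 0.13, limma adjusted p = 0.083), and 18.7% of all genes were higher without overlap. Over 13 alternative settings the log2 fold change of CG30410 was 0.13 to 0.34 and passed in 4, and that of CG8036 was -0.11 to 0.04 and passed in 1. The exact permutation p was 0.029 for both.

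**Figure D3:**
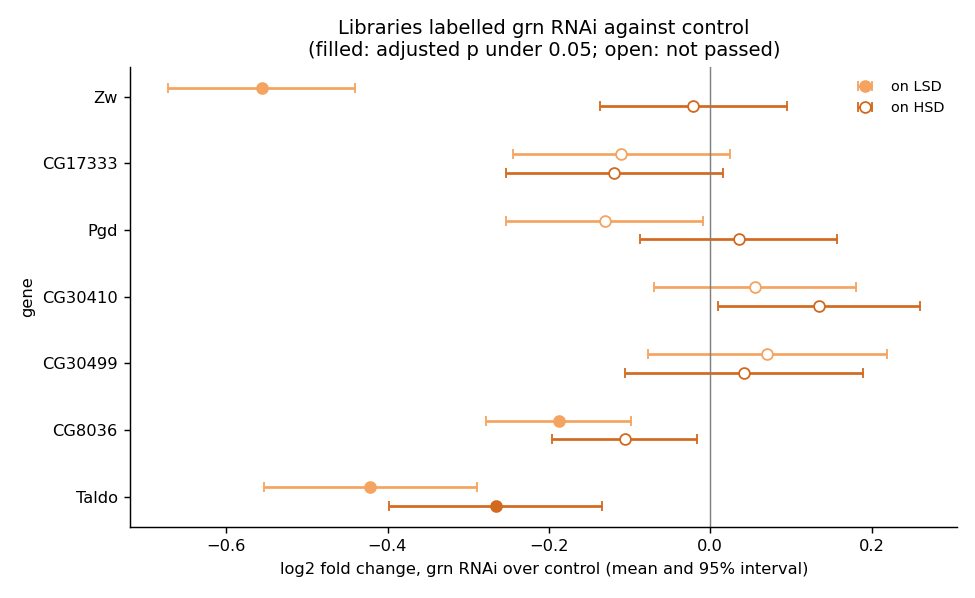
Log2 fold change of libraries labelled grn RNAi over control (x axis) with its 95% interval for each gene (y axis) on LSD and on HSD, n = 4 libraries per group; filled points passed an adjusted p under 0.05. Zw, CG8036 and Taldo are filled on LSD and Taldo alone on HSD, and the Zw intervals of the diets do not meet.

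Tissue markers moved with these comparisons. The summed normalized CPM of 10 midgut markers, digestive enzyme genes for the most part, was 5976 to 6688 in control larvae on LSD and 2046 to 2215 in the libraries labelled grn RNAi, with 10 of 10 lower. On HSD the sums were 6685 to 7409 and 3539 to 3860.1, with 8 of 10 lower. The diet response of 9 of the 10 was larger in grn RNAi larvae, the direction seen for Zw, beside 3.72% of all genes. Of the muscle markers, 8 of 10 were lower on LSD in grn RNAi larvae (summed 43639 to 48117 against 50144 to 54194), and 6 of 9 neuron markers were higher (481 to 558 against 431 to 524). Of all genes, 27.1% were called lower and 27.1% higher on LSD, and 21.2% lower on HSD. With the diet in control larvae, 6 of 10 midgut and 6 of 9 neuron markers rose, beside 19.3% of all genes. The sum of the 3 measured fat body markers was 421 to 789 on LSD and 436 to 519 on HSD in control larvae, of which the storage protein genes Lsp1beta and Lsp1gamma were near 0 in part of the libraries. The part of tissue composition in the Zw, Taldo and CG8036 results was not tested.

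The scaling between libraries also bears on the RNAi comparisons. The deposited values sum to 1025511 to 1131938 per library in control larvae and 929735 to 963521 in grn RNAi larvae. On CPM of the recovered reads, without that scaling, the median change over all genes (log2) rose by 0.19 on LSD and by 0.14 on HSD, and after quantile normalization by 0.10 and 0.12. On LSD, 2699 genes were called higher and 2692 lower on the deposited values, 5368 and 1598 on unscaled CPM, and 4105 and 1905 after quantile normalization. On HSD they were 1785 and 2109, 4209 and 1392, and 3930 and 1442 in the same order. Measured against the median of all genes, Zw on LSD was at -0.59 on the deposited values, -0.58 on unscaled CPM and -0.57 after quantile normalization. Taldo was at -0.45, -0.44 and -0.27 on LSD and at -0.28, -0.27 and -0.35 on HSD. CG8036 on LSD was at -0.22, -0.21 and -0.03, so that quantile normalization alone brought it near the median. CG30410 and CG30499 were called higher on both diets on either of these 2 scalings, and relative to the median their values on those 2 scalings were 0.04 to 0.08 on LSD and 0.03 to 0.21 on HSD.

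**Figure D4:**
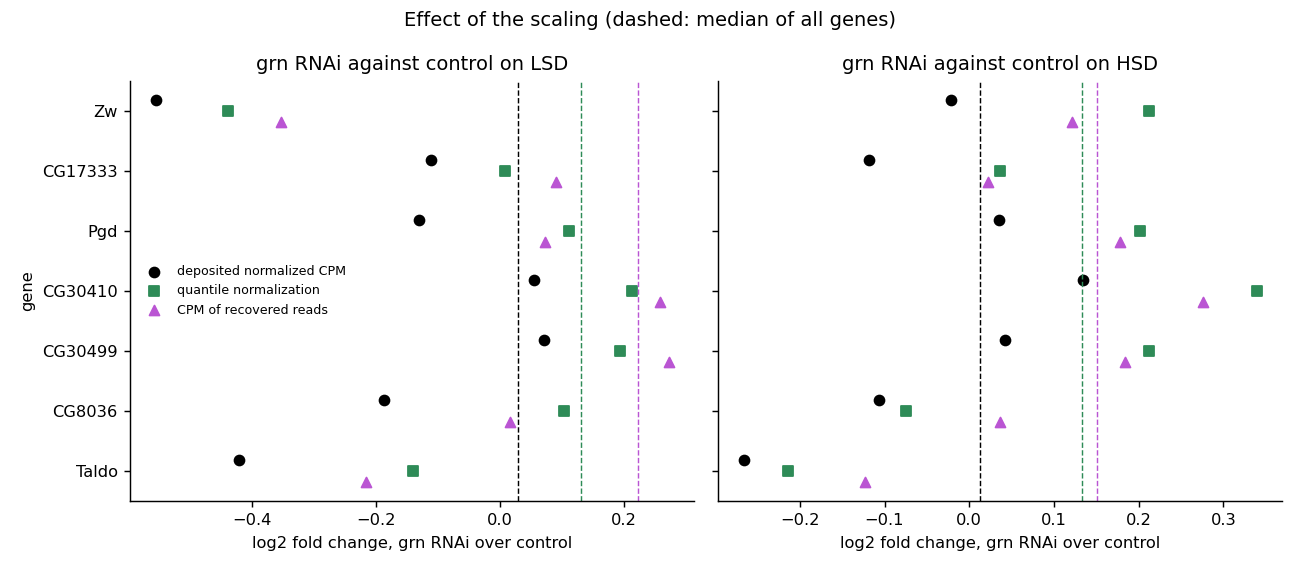
Log2 fold change of libraries labelled grn RNAi over control (x axis) for each gene (y axis) on LSD (left) and HSD (right) under 3 scalings, with the median of all genes under each as a dashed line. Zw on LSD and Taldo on both diets lie left of 0 under each scaling, while CG8036 on LSD moves from -0.19 to 0.10.

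Ratios of the genes within a library do not depend on the scaling, apart from quantile normalization. The ratio of Zw to Pgd, the dehydrogenases at either end of the oxidative branch, was 0.207 to 0.262 on LSD and 0.279 to 0.310 on HSD in control larvae. In grn RNAi larvae it was 0.163 to 0.183 on LSD and 0.267 to 0.299 on HSD. The LSD ranges of the genotypes did not overlap and the HSD ranges did. The ratio of CG17333 to Pgd went the other way with the diet, from 0.180 to 0.210 on LSD down to 0.0749 to 0.0921 on HSD in control larvae, and from 0.183 to 0.202 down to 0.0694 to 0.0895 in grn RNAi larvae. In both genotypes the transcript of the lactonase thus became scarcer relative to those of the dehydrogenases before and after it.

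In the non-oxidative branch the ratio of CG8036 to Taldo was 1.58 to 1.96 on LSD and 2.28 to 2.43 on HSD in control larvae. In grn RNAi larvae it was 2.01 to 2.24 on LSD and 2.48 to 2.73 on HSD, above control larvae without overlap on each diet. Taldo was therefore low in grn RNAi larvae relative to the transketolase gene too. The ratio of CG30410 to CG30499 stayed between 1.36 and 1.73 in all 16 libraries.

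**Figure D5:**
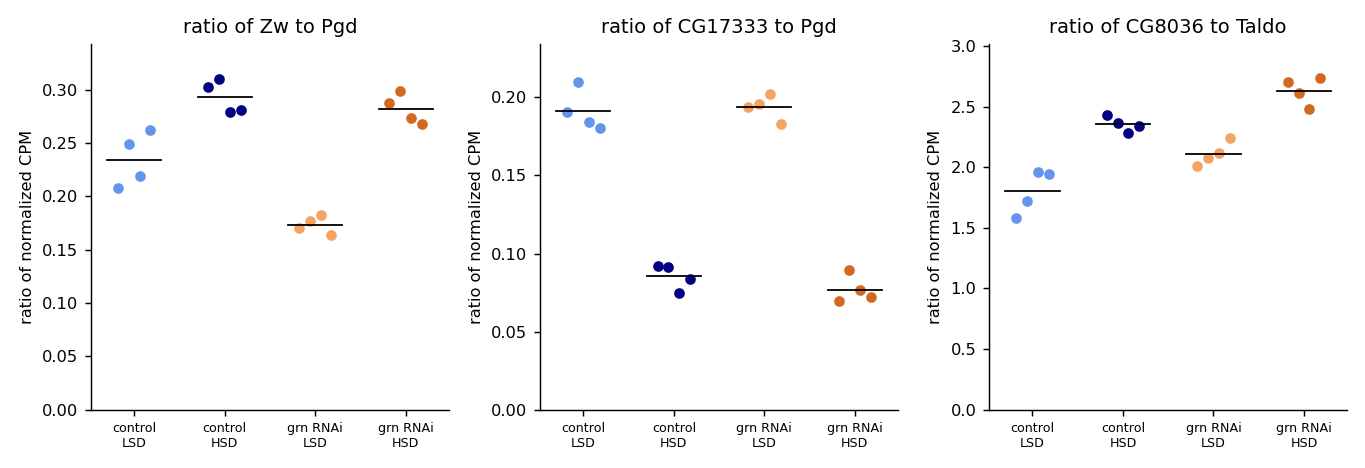
Ratios of normalized CPM (y axis, from 0) within each library by group (x axis) for Zw to Pgd, CG17333 to Pgd and CG8036 to Taldo; points are libraries and lines are means of 4. Zw to Pgd is lowest in grn RNAi larvae on LSD (0.163 to 0.183), and CG17333 to Pgd is lower on HSD in both genotypes.

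Levels were compared between genes after division by exonic length. In control larvae on LSD the order per kilobase was Taldo (403 ± 43.1 normalized CPM per kb), CG8036 (292 ± 8.82), Pgd (128 ± 8.23), CG30410 (66.0 ± 5.57), CG17333 (54.6 ± 5.14), CG30499 (52.9 ± 6.09) and Zw (22.5 ± 1.57; SD, n = 4). Zw was thus the least abundant of the 7 measured transcripts, and CG17333 and CG30499 lay within their spread of each other. On HSD the order was Taldo (991 ± 33.4), CG8036 (947 ± 27.9), Pgd (406 ± 22.0), Zw (89.6 ± 3.24), CG30410 (80.7 ± 2.54), CG17333 (77.4 ± 4.05) and CG30499 (62.5 ± 1.98), again per kb. Zw had moved from the last to the fourth place. In grn RNAi larvae Zw was also last on LSD (15.2 ± 0.55 per kb), and on HSD it was level with CG30410 (88.4 ± 5.35 and 88.7 ± 2.25 per kb), while CG8036 (879 ± 23.1) was above Taldo (824 ± 19.4).

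Summed over the 7 genes, the CPM of the recovered reads (without the deposited scaling) was 1558 to 1665 in control larvae on LSD and 4650 to 4804 on HSD. In grn RNAi larvae it was 1469 to 1649 on LSD and 4687 to 5087 on HSD. On this scale the genotypes overlapped on both diets. In normalized CPM, the non-oxidative sum was 1391 ± 72.6 on LSD and 3875 ± 107 on HSD in control larvae and 1184 ± 55.9 and 3515 ± 53.8 in grn RNAi larvae (SD, n = 4 each). The oxidative sum was 344 ± 18.1 and 1060.0 ± 43.5 in control larvae, and 301 ± 11.2 and 1071 ± 56.5 in grn RNAi larvae. In these units the non-oxidative sums did not overlap between the genotypes on either diet. On LSD they were 1303 to 1466 in control and 1102 to 1221 in grn RNAi larvae, and on HSD 3747 to 3971 and 3468 to 3591. The oxidative sums did not overlap on LSD and did on HSD.

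Other genes whose products meet the pathway moved to different degrees. Beside the counts in the gene lists below stand the shares of all genes called higher and lower. They were 19.3% and 22.3% for HSD in control larvae. For grn RNAi against control they were 27.1% and 27.1% on LSD and 17.9% and 21.2% on HSD. In control larvae, 6 of 7 genes of fatty acid synthesis, a process whose reductive steps use NADPH, rose on HSD and none fell (median log2 fold change 1.02). ATPCL, which makes cytosolic acetyl-CoA, rose by 1.81, the desaturase gene Desat1 by 1.44, FASN1 by 1.06 and ACC by 1.02 on the log2 scale (adjusted p at most 1.1e-06 from limma). On LSD, grn RNAi larvae had lower levels of 6 of the 7 and a higher level of FASN3. On HSD ATPCL was lower (log2 fold change -0.31, limma adjusted p = 0.0013) and FASN3 higher (1.05, limma adjusted p = 0.0026), and the other 5 did not pass.

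Of 5 other genes listed here as NADPH producers, 2 rose and 2 fell with the diet in control larvae. Among the 5 is Nmdmc, which is named for an NAD-dependent enzyme. The cytosolic malic enzyme gene Men rose by 0.83 and Men-b by 0.30 on the log2 scale, whereas the isocitrate dehydrogenase gene Idh changed by -0.73 and pug by -0.26 (adjusted p at most 0.023 from limma). In grn RNAi larvae on LSD, 2 of the 5 were higher and 2 lower. Men-b (log2 fold change 0.43) and Nmdmc (0.75) were higher, and they were also higher on HSD (0.48 and 0.68). Idh was lower on both diets (-0.52 and -0.18). Men, alone of the 5, had the pattern of calls of Zw. It was lower in grn RNAi larvae on LSD (1070.0 ± 64.1 normalized CPM in control larvae and 681 ± 30.6 in grn RNAi larvae, SD, n = 4 each, log2 fold change -0.65, adjusted p = 6.1e-08 from limma), did not pass on HSD (-0.06, adjusted p = 0.30), and its diet response was larger by 0.59 (adjusted p = 2.5e-04).

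Of 10 enzymes of hexose and triose phosphates, 5 rose and 2 fell on HSD in control larvae. Pgi, which shares glucose-6-phosphate and fructose-6-phosphate with the pathway, had a log2 fold change of 0.97 and the hexokinase gene Hex-A of 0.50, while fbp, encoding fructose-1,6-bisphosphatase, was at -0.31 and Hex-C at -0.73 (adjusted p at most 0.0062 from limma). On LSD, 8 of the 10 were lower in grn RNAi larvae and on HSD 2, Pgi and fbp.

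Of 4 measured genes linked to ribose or deoxyribose phosphates, none rose and 2 fell on HSD in control larvae. Of all genes, 19.3% were called higher and 22.3% lower. The 2 were CG13369 (log2 fold change -0.40) and CG8525 (-0.30, annotated as a deoxyribose-phosphate aldolase). CG6767, annotated as ribose-phosphate pyrophosphokinase, was at 0.03 (adjusted p = 0.63 from limma) and CG2246 at -0.06 (adjusted p = 0.16 from limma). In grn RNAi larvae 2 of the 4 were higher than in control larvae and none lower on each diet. They were CG6767 (0.36 on LSD and 0.35 on HSD) and CG2246 (0.19 and 0.12). Of 7 genes of ribonucleotide reductase and purine synthesis, 1 rose and 2 fell on HSD in control larvae, shares near those of all genes. In grn RNAi larvae on LSD, 6 of these 7 were higher, among them RnrL by 0.55 on the log2 scale (adjusted p = 9.3e-08 from limma). On HSD 3 of the 7 were higher and none lower, with RnrL at 0.37 (adjusted p = 8.7e-06 from limma). Of 8 genes of NADPH-dependent redox and glutathione metabolism, 1 rose and 4 fell with the diet in control larvae, and 5 were lower and none higher on LSD in grn RNAi larvae, with Cpr at -0.60 and Gclc at -0.59. On HSD 4 of the 8 were lower and 1 higher in grn RNAi larvae, with Cpr at -0.55 and Gclc at -0.27.

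Of 6 sugar-responsive transcription factors and signals, 5 rose on HSD in control larvae, with sug, encoding the zinc finger protein Sugarbabe, at a log2 fold change of 1.17 and Mondo, a sugar sensor of the same family as mammalian ChREBP, at 0.30. On LSD 3 of the 6 were lower in grn RNAi larvae, cbt (-0.47), daw (-0.26) and Smox (-0.24), and on HSD none passed at an adjusted p under 0.05 from limma.

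The genes whose profile was most like that of a pathway gene were ranked by the root mean square difference of centred log2 values over the 16 libraries, among 7177 genes with a mean of at least 10. For Pgd the closest was CG8036, at 0.088, and for CG8036 the closest was Pgd. CG3348, Desat1, alphaTry and fu12 followed for Pgd, and Desat1, Gbs-70E, CG3348 and ATPCL for CG8036. For Zw the closest genes were further away, CAH2 at 0.21 and ATPCL at 0.22, followed by CG3348, CG8036 and CG7298. For Taldo the closest was Gpdh, encoding glycerol-3-phosphate dehydrogenase, at 0.099, followed by CG17221, the glycogen branching enzyme gene AGBE, the galactokinase gene Galk and the acetyl-CoA synthetase gene AcCoAS. Between the members the closest pairs were CG30410 with CG30499, at 0.082, and Pgd with CG8036. The measure is not scaled to the size of a gene's change, so genes that change little, such as CG30410 and CG30499, come out close. These libraries share 4 group means, so the ranks describe this experiment only.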

How the data were processed

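Whole-larva RNA-seq of 16 libraries was used. Trimming with Trimmomatic, alignment to FlyBase release 6 with TopHat2 2.1.0, counting by strand with HTSeq and a filter on low genes were done by the authors, who deposited normalized CPM, a signal scaled between libraries. Dividing each deposited signal by what 1 read was worth in that library gave back the reads (100% of values whole within 0.01 read). Per the file headers, the authors' limma columns hold log2 fold changes and mean log2 values, a score (t and F statistics) and a p-value for each of their comparisons, and none was used.

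Values were taken as log2(normalized CPM + 0.5), so that fold changes are on that scale, and fitted with limma 3.58.1 in R 4.3.3 on all 16 libraries (4 group means, variance trend, two-sided, Benjamini-Hochberg over 9950 genes, threshold 0.05). Two-sided exact permutation tests over libraries were added. The limma fit was tested on simulated counts, with genes raised in grn RNAi larvae on LSD alone and no shift in scaling between the genotypes. That simulation does not bear on the effect of the scaling. edgeR 4.0.16 and DESeq2 1.42.0 were run on recovered reads as alternatives, and edgeR called 4064 and 4177 genes for the diet in control and grn RNAi larvae and 5341 and 3867 for grn RNAi on LSD and HSD. The other alternatives were the pseudocount, the filter, the trend, the scaling, the libraries fitted, a replicate block, a stricter threshold and each library left out.

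The members and gene lists were chosen with earlier results of these data known. In the lists, up to 4 genes per comparison were named, and they were chosen after their values were seen. They were not always the genes with the lowest adjusted p. Coordinates and exon lengths are from Ensembl's Release 6 annotation. The study describes its samples as biological replicates. The sources used here do not say whether these came from separate cultures.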

Additional observations from a re-analysis of the deposited data

Results flagged for a closer look

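The diet response of Zw was larger in grn RNAi larvae than in control larvae by 0.53 on the log2 scale (SE 0.08, adjusted p = 0.0013 from limma, the interaction term of the fit), with no overlap between the genotypes on LSD and overlap on HSD.

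In 2 of 28 sets of 4 libraries (7 genes in 4 groups) 1 library lay far from the other 3 by Dixon's 95% criterion, which chance meets in about 1 in 20 sets. Pgd was 265 normalized CPM in control LSD replicate 1, where the other 3 held 231 to 236, and without it the log2 fold change of grn RNAi against control on LSD was -0.09 (adjusted p = 0.20 from limma). CG17333 was 65.0 normalized CPM in grn HSD replicate 2, where the other 3 held 58.3 to 59.5, and without it the diet response in grn RNAi larvae was 0.46 (adjusted p = 1.2e-04 from limma).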

How the results depend on the processing

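The count of members called kept within 1.5 times in 137 of 144 alternative fits. The 7 others concern grn RNAi against control on HSD, where 1 member (Taldo, lower) was called. It became 5 after quantile normalization (4 higher, 1 lower), 4 on unscaled CPM (3 higher, 1 lower), 3 with the 8 libraries alone (1 higher, 2 lower) and 2 with DESeq2 (1 higher, 1 lower). Over all genes in that comparison, 1785 were called higher and 2109 lower, against 3930 and 1442 after quantile normalization, 4209 and 1392 on unscaled CPM, 1785 and 2009 with the 8 libraries alone and 2106 and 2176 with DESeq2. With each library left out it was 1 to 2, reaching 2 without control LSD replicate 3 (CG30410), control HSD replicate 4 (CG8036) or grn LSD replicate 2 (CG8036). Of the members called, CG8036 on LSD alone changed sign, to 0.10 after quantile normalization (adjusted p = 0.054, -0.03 against the all-gene median) and to 0.016 on unscaled CPM (adjusted p = 0.78, -0.21 against that median). Zw on HSD, not called as reported, was 0.21 after quantile normalization (adjusted p = 0.0058), 0.08 against the median. Other values that were not called also changed sign. On these 2 scalings, in the same order, they were Pgd (0.11 and 0.07) and CG17333 (0.01 and 0.09) on LSD and CG17333 (0.04 and 0.02) on HSD, and, on unscaled CPM alone, CG8036 (0.04) and Zw (0.12) on HSD. The difference of the diet response became -0.07 for Taldo and -0.18 for CG8036 after quantile normalization, and for CG17333 and CG30499 it lay near 0 with either sign. Over the alternatives Taldo was -0.43 to -0.14 on LSD (adjusted p up to 0.030) and -0.27 to -0.12 on HSD (adjusted p up to 0.043), and Zw was -0.57 to -0.35 on LSD.

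The replicate numbers were not shown to pair the samples, and pairing of some libraries is not excluded. The mean correlation of same-numbered libraries was -0.17 to 0.20, and 6 of 16 libraries correlated best with their own number. Single pairs reached -0.51 and 0.80, both in replicate 3. With a replicate block the members called were 7, 7, 4, 1 and 1 in the 5 comparisons, with Pgd added on LSD (adjusted p = 0.043).

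Over all genes, the diet response in control larvae called 4138, and 2706 at an adjusted p under 0.01. The difference of the diet response called 532, against 180 at 0.01, 1011 with DESeq2, and 331 to 1017 with a library left out, the highest without control HSD replicate 3 and the lowest without grn HSD replicate 1. Every member had at least 946 reads in every library.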
